A study of Rattus norvegicus with 4 samples.

Results

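Heat shock proteins and chaperones were followed in the rat testis after injections of an antibody against follicle-stimulating hormone (FSH). The members were the array probe sets that the platform annotation pairs with exactly 1 gene symbol of the Hsp70 (Hspa), small heat shock protein (Hspb), Hsp90, Hspd1, Hspe1, Hsph1, J-domain (Dnaj), cytosolic chaperonin (Cct, Tcp1) or protein disulfide isomerase (Pdia) names, or with Cryab, Calr or Canx. Hspa2, a germ cell Hsp70, was left out. The choice gave 67 probe sets of 34 genes, out of 8740 probe sets that are not array controls. A further 10 probe sets pair with several symbols of which at least 1 matches, and they were left out because their gene cannot be named.

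The FSH antibody group was male Sprague Dawley rats, an outbred strain, given sheep antibody against rat FSH for 4 days. The control IgG group was male Sprague Dawley rats given a control sheep immunoglobulin for 4 days. Each group had 2 testis RNA samples, and each sample was read on its own Affymetrix U34 rat array (set A). The labels disagree on age: the series design starts the treatment on day 14, the treatment protocol starts it on day 18 with collection on day 22, every source name and sample description gives day 18, and the title of FSH antibody replicate 2 names postnatal day 4. The extract protocol speaks of some 20 pooled organs behind every RNA sample and calls them ovaries, whereas each source name gives testis and a single animal. The tests rest on the spread between RNA samples, for which the number of animals is not settled.

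Without detection calls, the presence of a marker on an array is not settled. Of 11 measured Sertoli cell markers, 10 were bright enough to be tested (at or above the 40th percentile of mean log2 intensity), as were 13 of 15 measured markers of meiotic and later germ cells and 2 of 4 ovary markers. Kitlg, Odf1 and Tnp2 were among those too dim. The summed intensity of the 11 Sertoli cell markers, 1 probe set per gene, was 10491 and 11331 on the FSH antibody arrays and 11257 and 10789 on the control IgG arrays. Clu alone gave 6439.6 and 7459.2 against 6776.2 and 6770, and the sum hides markers that moved both ways. Testin, a secreted Sertoli cell protein, rose, at 114.4 and 127.9 against 28.2 and 33.1 (log2 change 1.56 ± 0.18, limma, adjusted p = 0.0153). Inha, the inhibin alpha subunit, gave −0.90 ± 0.19 on M36453_at, and Shbg, the androgen-binding protein, −0.66 ± 0.16 (adjusted p = 0.122 and 0.218). The sum of the 4 ovary markers was 167.1 and 182.8 against 143.2 and 141.5, higher under the antibody, with Cyp19a1 (aromatase) at 2.9 and 7.7 against 4.2 and 10.2. Germ cell markers varied within both groups. The summed intensity of the 15 germ cell markers was 2133 and 1487 on the FSH antibody arrays, against 1663 and 2805 on the control IgG arrays. Hspa2 alone read 358.1 and 142.6 against 150.1 and 505.9, so it was high on 1 array of each group. In a whole testis, fewer cells of a type and less RNA per cell cannot be told apart.

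Chaperones bind unfolded proteins and help them fold, assemble, cross membranes or be destroyed. Hsp70 proteins work in cycles of ATP binding that J-domain proteins start and that exchange factors such as the Hsp110 family end, while Hsp90 finishes clients such as kinases and steroid receptors. Many cytosolic members are switched on by heat shock factor 1 through heat shock elements, and many members of the endoplasmic reticulum (ER) by the unfolded protein response through the ER stress response element. Sertoli cells, which carry the FSH receptor, secrete large amounts of folded protein into the tubule, and germ cells are known for testis forms of Hsp70 and of other chaperones.

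Promoter sequences are shown first, because they tell which members carry a heat shock element or an ER stress response element, whatever the arrays read. RefSeq promoters of assembly GRCr8, reaching 250 bases before and 50 after the start of transcription, were matched for 29 of the 34 genes. Cryab, Dnaja2, Hspb2, Pdia3 and Pdia6 had no entry. The ER stress response element was searched as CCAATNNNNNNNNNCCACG on both strands. It was found in 22 of 33469 promoters, which is 0.0657%, and 4 of the 22 belong to members, namely Hspa5, Hsp90b1, Canx and Calr. The windows below, for Hspa5, Calr and Hsp90b1, hold it in capitals, on the strand of the gene, so a match on the opposite strand reads in reverse complement. Their places are chr3:38452963-38453001 (plus strand) for Hspa5, chr19:40213125-40213163 (plus strand) for Calr and chr7:23012337-23012479 (minus strand) for Hsp90b1, which holds 2 matches.
Hspa5: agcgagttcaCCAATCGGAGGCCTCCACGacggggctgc
Calr: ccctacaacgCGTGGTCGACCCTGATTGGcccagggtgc
Hsp90b1: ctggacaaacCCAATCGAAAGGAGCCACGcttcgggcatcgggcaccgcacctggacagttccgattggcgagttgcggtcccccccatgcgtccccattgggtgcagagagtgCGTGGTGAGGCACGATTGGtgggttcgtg

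The heat shock element was searched as 3 alternating units, GAANNTTCNNGAA, on both strands. It was found in 267 of the 33469 promoters (0.798%) and in those of Hsph1, Hspd1, Hspe1 and Dnaja1 among the 29 members. In Dnaja1 the match lies after the start, from base 10 to base 22. Hspd1 and Hspe1 are read in opposite directions from starts 290 bases apart, and the same bases lie in both promoter windows. There, overlapping matches on the 2 strands join into 1 run. The windows lie at chr12:10427322-10427354 (plus strand) for Hsph1 and at chr9:64084252-64084289 (shown on the plus strand, that of Hspe1). With 2 units only, GAANNTTC, the element was found in 8.59% of all promoters and in 8 members. The match in Hspa9 is shown because Hspa9 is the one member with a call, at chr18:26828443-26828502 (minus strand). These matches are of letters only and say nothing of binding.
Hsph1: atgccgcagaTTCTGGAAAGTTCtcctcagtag
Hspe1: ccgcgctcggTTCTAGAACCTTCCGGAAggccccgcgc
Hspa9: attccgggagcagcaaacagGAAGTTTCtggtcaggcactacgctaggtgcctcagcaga

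After 4 days of FSH antibody, most chaperone transcripts stood close to their level under control IgG. One probe set of Hspa9, the Hsp70 of the mitochondrial matrix, was called lower, and no member was called higher. Intensities below are linear and as deposited. A log2 change is the FSH antibody group minus the control IgG group, on the log2(intensity + 16) scale, with its standard error from limma; this scale understates changes of dim probe sets. Of the 67 probe sets, 62 (31 genes) were bright enough to be tested among 5244. With Benjamini-Hochberg adjustment over all of them, 1 of the 62 was called lower at an adjusted p under 0.05 and 0 were called higher, where 0.153% and 0.114% of all tested probe sets were called. At an unadjusted p under 0.05, limma gave 2 higher and 3 lower members (3.23% and 4.84% of the 62), against 3.97% and 4.14% of all tested probe sets. Together they made up 8.06% of the members, near the 8.10% of the whole array.

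The typical size of a member's change was also near that of the array. The median absolute log2 change was 0.13 over the 62 members and 0.16 over all tested probe sets, and 39 of the members (62.9%) changed by less than 0.2 against 60.6% of all. Members were bright, with 33 of the 62 among the brightest 25% of the tested probe sets. Among those the median absolute change was 0.11 for members and 0.12 for all. The signed median was −0.03 for members and 0.03 for all tested probe sets. With only the brightest probe set of each of the 31 genes, the members' median was −0.015. A log2 change below 0 was found for 38 of the 62 member probe sets (61.3%), many of which share a gene, against 44.7% of all. Within the brightest 25% it was found for 22 of the 33 members, against 49.9% of all. Groups did not overlap for 14 members with lower and 7 with higher values under the antibody, against 15.5% and 21.9% of all tested probe sets. In either direction that was 33.9% of the members and 37.4% of all.

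**Figure D1:**
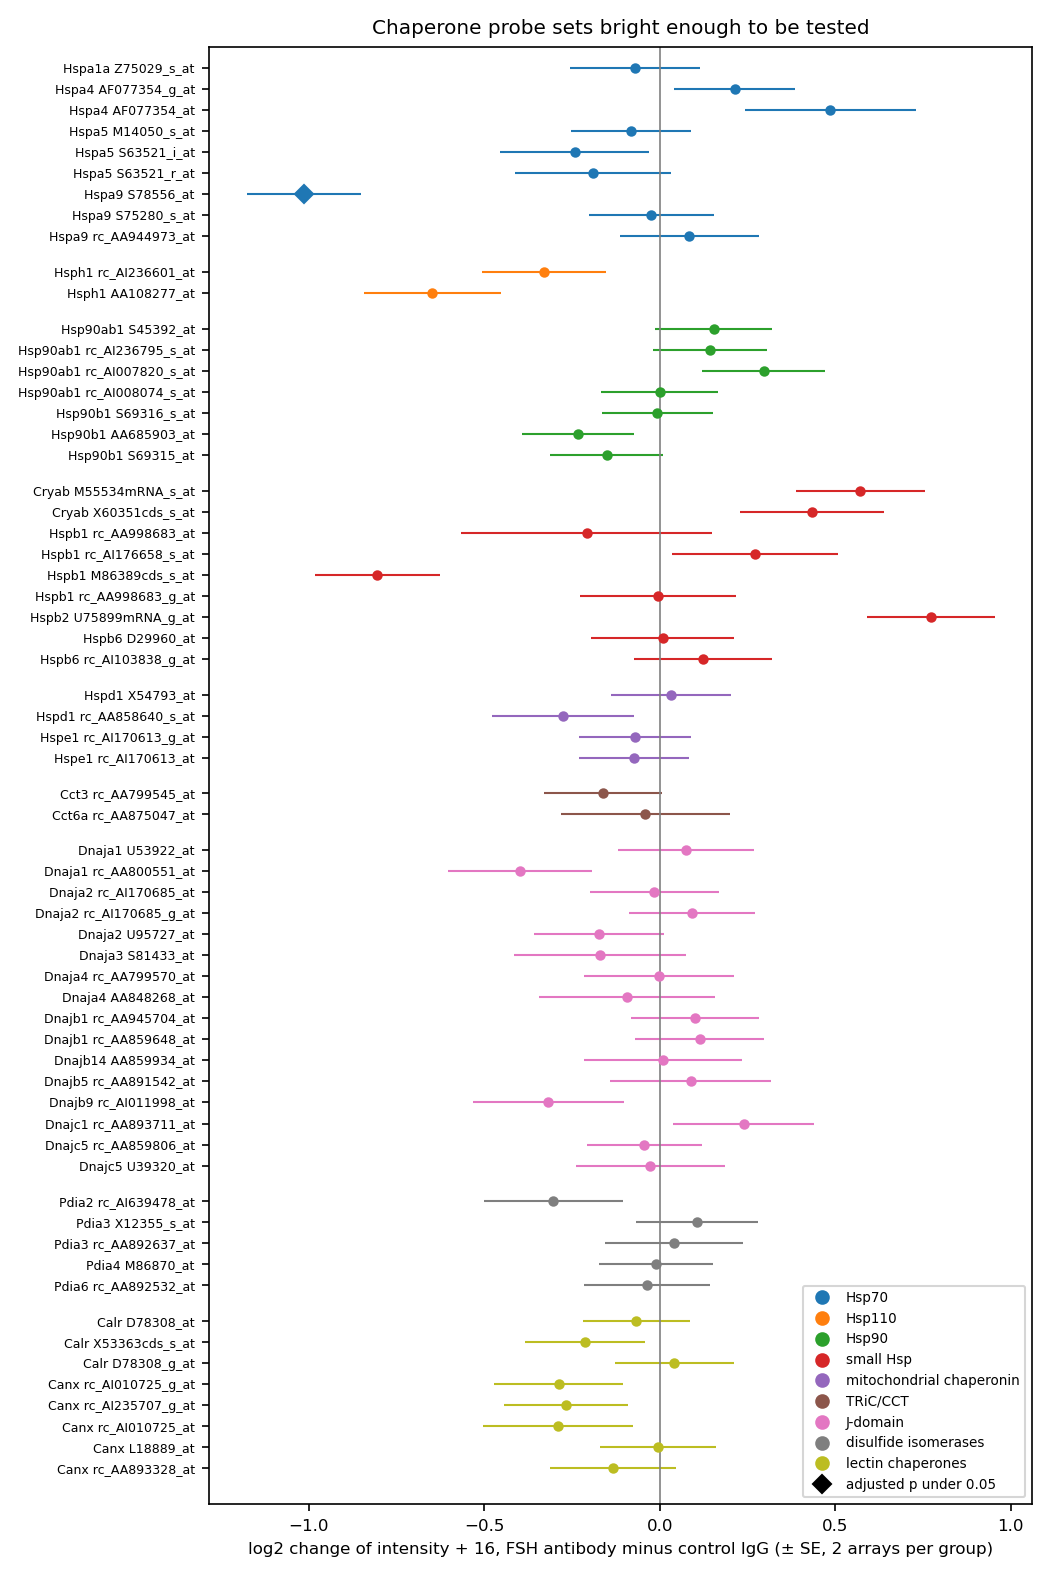
Log2 change of intensity + 16 (x axis, FSH antibody minus control IgG, points with SE, 2 arrays per group) for each of the 62 tested chaperone probe sets, grouped and coloured by subfamily. The Hspa9 probe set S78556_at at −1.01 is the one diamond, which marks an adjusted p under 0.05; 39 points lie within 0.2 of 0.

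Hspa9, also called mortalin, pulls imported proteins into the mitochondrial matrix and helps them fold there. Its probe set S78556_at read 254.1 and 259.0 on the FSH antibody arrays, against 537.7 and 531.1 on the control IgG arrays. The arrays of each group nearly coincided, and the groups were far apart. The log2 change was −1.01 ± 0.16 (limma, adjusted p = 0.0484). The other Hspa9 probe sets, designed from other sequence records, showed no such gap. Probe set S75280_s_at read 159.6 and 191.6 under the antibody and 189.3 and 167.6 under control IgG, and rc_AA944973_at read 49.5 and 39.8 against 38.6 and 43.6. Their groups overlapped, and their log2 changes were −0.02 ± 0.18 and 0.08 ± 0.20 (adjusted p = 0.983 and 0.950). The 3 probe sets of this gene thus disagreed by 1.10 on the log2 scale. That was the widest disagreement among the 19 member genes with several tested probe sets, whose median range was 0.25.

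The Hspa9 call also lay close to the threshold. The log2 change of S78556_at stayed between −1.06 and −0.90 in 12 other settings of the processing, but its adjusted p ranged between 0.00378 and 0.634. The call ended with quantile normalization (0.113), median centring (0.0734), an added constant of 1 (0.0549) or 64 (0.0501), no filter (0.224), no intensity trend (0.0664), and without control IgG replicate 1 (0.359) or replicate 2 (0.634). None of the other mitochondrial members was called. Hspd1 and Hspe1 form the matrix chaperonin, the first as the barrel and the second as its lid. Hspe1 read 1261.8 and 1162.9 under the antibody and 1214.9 and 1333.1 under control IgG on rc_AI170613_g_at, a log2 change of −0.07 ± 0.16, and −0.07 ± 0.16 on the second probe set of the same sequence. Hspd1 gave 0.03 ± 0.17 on X54793_at (1175.9 and 1410.0 against 1347.3 and 1177.6) and −0.28 ± 0.20 on rc_AA858640_s_at (599.4 and 880.2 against 901.2 and 865.1), where FSH antibody replicate 1 was the low array and the groups overlapped. Dnaja3, the mitochondrial J-domain partner of Hspa9, read 62.3 and 36.9 against 46.3 and 68.3, with a change of −0.17. Grpel1, the nucleotide exchange factor that releases Hspa9 from ADP, is no member and gave 0.27 ± 0.19 (adjusted p = 0.801). Hspa9 was thus the one mitochondrial gene of these with a called probe set.

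**Figure D2:**
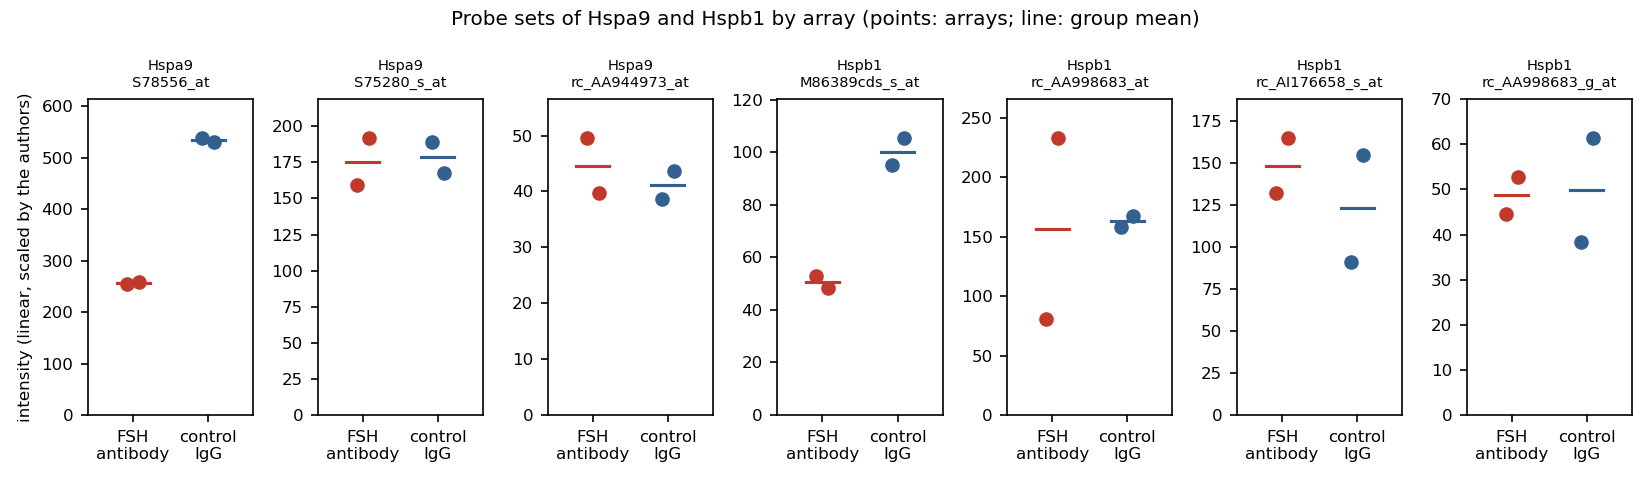
Linear intensity (y axis from 0, separate for each probe set) on each FSH antibody array and each control IgG array for 3 Hspa9 and 4 Hspb1 probe sets; points are arrays and lines are group means. S78556_at of Hspa9 (254.1 and 259.0 against 537.7 and 531.1) and M86389cds_s_at of Hspb1 (52.9 and 48.2 against 95.2 and 105.3) have separate groups, while the other probe sets of both genes overlap.

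Small heat shock proteins, which hold unfolding proteins without ATP, had 9 tested probe sets of 4 genes, of which 2 were higher and 1 lower at an unadjusted p under 0.05 by limma, where 3.97% and 4.14% of all tested probe sets were. None of the 9 was called after adjustment. Hspb2, a muscle form, read 127.1 and 156.2 on the FSH antibody arrays and 71.7 and 80.3 on the control IgG arrays by U75899mRNA_g_at. Both antibody values lay above both control values. The log2 change was 0.77 ± 0.18 (limma, adjusted p = 0.184), so it was not called. The change was 0.91 without FSH antibody replicate 1 and 0.64 without replicate 2. Its second probe set, from the same sequence, read 9.3 and 12.0 against 9.9 and 7.0 and was too dim to be tested. Cryab, alpha B-crystallin of lens and muscle, read 78.0 and 68.1 against 41.8 and 46.0 on M55534mRNA_s_at, a change of 0.57 ± 0.18 (adjusted p = 0.476). On X60351cds_s_at it read 56.0 and 42.2 against 33.2 and 30.7, a change of 0.43 ± 0.20 (adjusted p = 0.632). The groups were separate on both Cryab probe sets. Hspb2 and Cryab are direct neighbours among the protein-coding genes of the RefSeq assembly.

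Both genes are known from muscle, and markers of other cell types were set beside them. The summed intensity of 7 smooth muscle and peritubular markers was 3752 and 2748 under the antibody, against 3274 and 3447 under control IgG, with overlapping groups. For 8 skeletal muscle markers it was 157.2 and 154.2 against 168.3 and 202.2, lower under the antibody, although Pvalb gave 0.32 ± 0.21. For 6 endothelial markers it was 291.1 and 353.6 against 223.7 and 222.8. For 5 macrophage markers it was 265.3 and 331.5 against 238.9 and 231.5. Both sums were higher under the antibody, but not every marker in them was. Edn1, listed here as an endothelial marker, read 88.1 and 89.8 against 38.3 and 34, and made up much of the difference in the endothelial sum. Whether the Edn1 signal came from endothelium was not tested. The groups of Pecam1 overlapped, with a change of 0.09 ± 0.21. Of the macrophage markers, Lyz2 changed by 0.60 ± 0.22. C1qb was lower on X71127_at, at 18.7 and 17.3 against 31.3 and 49.2 (−0.71 ± 0.23), and gave 0.06 ± 0.26 on its other probe set. None of the markers in these sums passed the adjusted threshold, and none was at 0 on all arrays. The part of endothelial and macrophage RNA in the Hspb2 and Cryab values was not tested.

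Hspb1, the widely made form that also binds actin filaments, had 4 tested probe sets that disagreed by 1.08 on the log2 scale. M86389cds_s_at read 52.9 and 48.2 against 95.2 and 105.3, with separate groups, and changed by −0.80 ± 0.18 (adjusted p = 0.149). The change was −0.86 without FSH antibody replicate 1 and −0.75 without replicate 2. The probe set rc_AI176658_s_at read 132.1 and 164.8 against 91.4 and 155.0, a change of 0.27 ± 0.24 in the other direction. On rc_AA998683_at the FSH antibody arrays lay far apart, at 80.3 and 232.5, on both sides of the control IgG arrays at 158.4 and 167.2. The change there was −0.21 ± 0.36. Without FSH antibody replicate 2 it was −0.89, and without replicate 1 it was 0.48. Its partner rc_AA998683_g_at gave 0.00 (44.6 and 52.8 against 38.3 and 61.3). The direction of Hspb1 was therefore not settled by these arrays. Hspb6, a small form of smooth and heart muscle, stayed near its control level, with 67.2 and 71.9 against 56.5 and 83.7 on D29960_at and a change of 0.01 ± 0.20. Its other probe set, rc_AI103838_g_at, gave 0.12 ± 0.20.

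Hsph1, the Hsp110 protein that acts as exchange factor for cytosolic Hsp70, had lower values under the antibody on both of its probe sets. AA108277_at read 40.2 and 52.1 against 73.1 and 89.4, and changed by −0.65 ± 0.20 (limma, adjusted p = 0.433). The probe set rc_AI236601_at read 270.7 and 223.0 against 323.8 and 302.4, and changed by −0.33 ± 0.18 (adjusted p = 0.682). Groups were separate on both, but neither change was called. Among the genes with a heat shock element of 3 units in the promoter the values were mixed in size. Over the 8 tested probe sets of Hsph1, Hspd1, Hspe1 and Dnaja1, 6 had values below 0 and the median was −0.17. Of all tested probe sets, 44.7% lay below 0. The count for these genes was 5 of 7 to 8 of 8 in the other settings. It was chosen after the values had been seen. Hspd1 and Hspe1, with 4 of the 8 probe sets, share the same element.

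**Figure D3:**
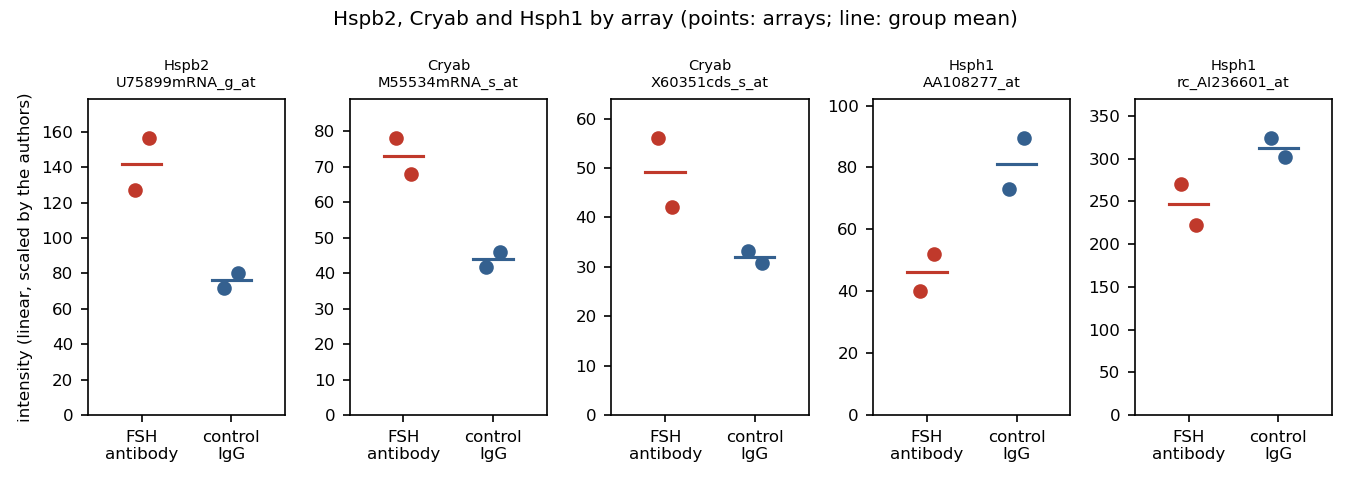
Linear intensity (y axis from 0, separate for each probe set) on each FSH antibody array and each control IgG array for Hspb2, Cryab and Hsph1; points are arrays and lines are group means. Groups do not overlap in any of the 5 panels: Hspb2 and Cryab are higher under the antibody and Hsph1 is lower, and none of these was called (adjusted p from 0.184 to 0.682).

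The remaining cytosolic Hsp70 genes were not called. Hspa1a, the classic heat-inducible form, read 52.4 and 46.6 under the antibody and 53.8 and 51.6 under control IgG, a log2 change of −0.07 ± 0.18. Hspa4, a relative of Hsp110, read 81.2 and 84.8 against 70.8 and 68.0 on AF077354_g_at, with separate groups and a change of 0.21. On the second probe set of that sequence it read 48.5 and 51.8 against 43.2 and 21.7, a change of 0.49. That second value rests largely on control IgG replicate 2, the low array at 21.7. Hspa1l, a germ cell form that sits next to Hspa1a in the genome, was too dim to be tested, at 19.6 and 18.1 against 16.4 and 17.7.

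Hsp90ab1, the constitutive cytosolic Hsp90, had 4 probe sets with values at or above control. S45392_at read 4116.1 and 5110.2 against 4397.7 and 3863.9, a log2 change of 0.15 ± 0.17 with overlapping groups. The widest change of this gene was 0.30 ± 0.17 on rc_AI007820_s_at, at 3286.5 and 4343.9 against 3192.5 and 2959.5, where the groups were separate (adjusted p = 0.715). The probe sets rc_AI236795_s_at and rc_AI008074_s_at gave 0.14 ± 0.16 and 0.00. FSH antibody replicate 2 was the highest array on each of the 4 probe sets of Hsp90ab1. Without that array, S45392_at and rc_AI236795_s_at turned to −0.0021 and −0.01, and rc_AI007820_s_at gave 0.096. Without FSH antibody replicate 1, rc_AI007820_s_at gave 0.50.

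J-domain proteins, which deliver clients to Hsp70 and start its ATP cycle, had 16 tested probe sets of 10 genes with a median log2 change of −0.01. Of these, 13 changed by less than 0.2. Dnajb1, the heat-inducible partner of cytosolic Hsp70, read 321.6 and 340.7 against 271.3 and 348.9 on rc_AA945704_at, with overlapping groups and a change of 0.10. Its other probe set gave 0.11. Dnaja1, whose loss in mice disturbs androgen receptor signalling and sperm formation, disagreed between probe sets. U53922_at read 1035.8 and 823.5 against 996.8 and 769.3 (0.08 ± 0.19), and rc_AA800551_at read 212.2 and 185.1 against 318.9 and 221.7 (−0.40 ± 0.20, adjusted p = 0.675). Dnaja2, another partner of cytosolic Hsp70, gave −0.02 ± 0.18 and 0.09 ± 0.18 on the probe sets of 1 sequence and −0.17 on the third. Dnajc5, the cysteine string protein of secretory vesicles, read 265.3 and 278.4 against 278.6 and 282.8 on rc_AA859806_at, a change of −0.04. Dnaja4, Dnajb5 and Dnajb14 changed by −0.09 to 0.09, and Dnajc17, at 26.2 and 24.2 against 22.8 and 4.9, was too dim to be tested.

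The cytosolic chaperonin folds actin and tubulin, and only 2 of its subunits were measured. Cct3 read 630.1 and 534.0 under the antibody against 649.1 and 651.5 under control IgG, with separate groups and a log2 change of −0.16 ± 0.17. Cct6a read 47.5 and 88.2 against 68.7 and 66.7, a change of −0.04 ± 0.24. The arrays of the FSH antibody group alone spanned more than the groups differed.

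The ER chaperones among the members mostly had values slightly below control, none of which was called. The ER genes were grouped by textbook location after their values had been seen, so their count is a description. A log2 change below 0 was found for 44.7% of all tested probe sets and for 49.9% of the brightest 25%. Of 21 tested ER probe sets of 10 genes, it was found for 17 (81.0%), and their median was −0.13. The lowest was −0.32 (Dnajb9) and the highest 0.24 (Dnajc1). Without FSH antibody replicate 1 the count was 14 of 21. Within the same values, the 4 genes with an ER stress response element in the promoter had 14 tested probe sets, of which 5 are of Canx. Of the 14, 13 lay below 0, with a median of −0.17, and 11 of 14 without FSH antibody replicate 1. Groups were separate and lower for 6 (42.9%, against 15.5% of all tested probe sets). This set too was formed after the values had been seen.

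Calnexin (Canx), the membrane lectin that holds newly made glycoproteins, carried much of that count, with all 5 probe sets below 0. The probe set rc_AI010725_g_at read 761.9 and 1031.4 under the antibody and 1079.4 and 1093.3 under control IgG, a log2 change of −0.29 ± 0.18 (adjusted p = 0.751). It was −0.074 without FSH antibody replicate 1 and −0.50 without replicate 2, so the array left out set its size. The probe set rc_AI235707_g_at read 645.7 and 774.3 against 787.3 and 925.9 (−0.27 ± 0.18), and rc_AI010725_at 361.4 and 555.4 against 530.6 and 573.3 (−0.29 ± 0.21). FSH antibody replicate 1 was the lowest array on each of these 3. L18889_at gave no such difference, at 328.2 and 311.6 against 335.9 and 306.6 (change 0.00). Calreticulin (Calr), the soluble lectin of the same cycle and a calcium-binding protein, read 1895.5 and 1982.1 against 2048.9 and 2011.8 on D78308_at. Its groups were separate, but by a log2 change of only −0.07 ± 0.15. Its other probe sets gave −0.21 ± 0.17 and 0.04 ± 0.17.

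Hspa5, or BiP, the ER Hsp70 and sensor of unfolded proteins, read 1060.2 and 1308.4 against 1212.0 and 1284.9 on M14050_s_at, with overlapping groups and a change of −0.08 ± 0.17. S63521_i_at gave −0.24 ± 0.21 and S63521_r_at, from the same sequence, −0.19. Hsp90b1, the ER Hsp90 that folds integrins and Toll-like receptors, had separate lower groups on AA685903_at, at 682.3 and 700.7 against 841.6 and 791.1, a change of −0.23 ± 0.16 (adjusted p = 0.776). S69315_at also had separate groups (699.0 and 715.1 against 825.2 and 750.8, −0.15 ± 0.16), whereas S69316_s_at gave −0.0069. Dnajb9, a J-domain partner of Hspa5, read 259.3 and 167.8 against 276.8 and 252.4 (−0.32), and Dnajc1, another, 36.3 and 38.1 against 30.3 and 27.9 (0.24). Hspa13, an Hsp70 of microsomes, was too dim to be tested, at 19.6 and 12.7 against 17.4 and 19.7.

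Protein disulfide isomerases, which form and shuffle disulfide bonds, were close to control. Pdia3, which works on glycoproteins held by Canx and Calr, read 1194.8 and 1440.3 against 1314.5 and 1129.5, a log2 change of 0.11 ± 0.17, and 0.04 on its other probe set. Pdia4 read 437.1 and 419.0 against 428.1 and 434.7 (−0.01 ± 0.16), and Pdia6 read 665.2 and 814.2 against 693.4 and 822.0 (−0.04 ± 0.18). Pdia2, known from pancreas, was the exception with separate groups, at 29.5 and 29.7 against 38.3 and 42.3 (−0.30, adjusted p = 0.761). It was not called either.

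**Figure D4:**
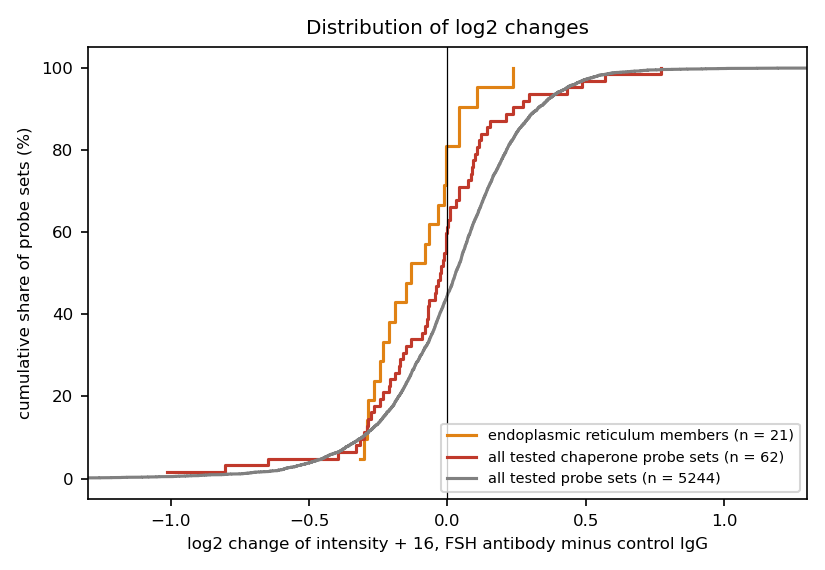
Cumulative share of probe sets (y axis, percent) by log2 change of intensity + 16 (x axis, FSH antibody minus control IgG) for 21 ER members, all 62 tested chaperone probe sets and all 5244 tested probe sets. At 0 the curves stand at 81.0%, 61.3% and 44.7%. Among the brightest 25% of all tested probe sets, not drawn, 49.9% lay below 0.

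The wider pathway was read from lists of genes that are no members. Of 33 listed regulators and cochaperones of the heat shock system, 12 genes (18 probe sets) were tested, and 0 probe sets passed limma's adjusted threshold or an unadjusted p under 0.05. Chordc1, a cochaperone of Hsp90, had the smallest p, at 96.8 and 81.6 under the antibody against 124.6 and 116.4 (−0.38 ± 0.18, adjusted p = 0.632). Fkbp4, the immunophilin that escorts steroid receptors on Hsp90, gave −0.37 ± 0.18 on rc_AI136977_at but −0.04 and 0.04 on its other probe sets. The list's median log2 change was 0.04. Of 33 listed genes of ER folding and the unfolded protein response, 12 genes (19 probe sets) were tested, 0 were called after adjustment, and 1 in each direction had an unadjusted p under 0.05 by limma. Trib3, a target of the stress factors Atf4 and Ddit3, read 20.8 and 16.1 against 43.3 and 36.8 (−0.70 ± 0.21, adjusted p = 0.435). Ppp1r15a, which restores translation after stress, read 56.8 and 76.6 against 47.7 and 39.9 (0.46 ± 0.20, adjusted p = 0.610). Both are induced in the same stress response and pointed in opposite directions here. The list's median was 0.06, against −0.13 for the ER members, and 12 of its 19 tested probe sets had values above 0. The list also holds ER folding genes: Serpinh1 gave 0.10, P4hb 0.12, 0.02 and −0.14, and Hyou1 0.02 and −0.19. The lean of the ER members below 0 was thus not shared by all ER folding genes.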

How the data were processed

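The deposited table holds linear intensities, 1 per probe set, that the authors had scaled: with 2% trimmed from each end, all 4 arrays averaged 125. Software and background correction were not given in the sources used here; without detection calls it is not known which probe sets were above background. Groups came from the source names. Symbols came from the platform annotation, where 7006 of 8740 probe sets have 1 symbol, 308 several and 1426 none; for genes that are not members they were updated through RefSeq (GRCr8).

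Of 8799 probe sets, 59 controls were left out. Values were analysed as log2(intensity + 16), keeping 5244 probe sets at or above the 40th percentile of mean log2. The groups were compared with limma 3.58.1 (R 4.3.3; lmFit, eBayes with intensity trend), two-sided; p-values were adjusted by Benjamini-Hochberg and called under 0.05. The functions were tested on simulated data of 2 arrays per group, with normal noise and 200 of 5244 probe sets changed. There, 72.75% of 2-fold and 99.45% of 4-fold changes were recovered. The real data gave only 14 calls, which makes the adjusted threshold stricter. These shares therefore do not give the recovery among the members. The members and lists were chosen with earlier results of these data known. The fit is given for every Hspa9 probe set, every member with an unadjusted p under 0.05, and the 3 brightest of each subfamily; others were described after their values were seen. Alternatives were other scaling, constants, filters and variance models, each array left out and the replicate number as a block. Intensities of different probe sets are not compared, and 2 arrays per group limit the precision. The array medians of log2 values differed by at most 0.103. The log2 ratio of 3′ to 5′ signal of beta-actin, a measure of RNA integrity, was 1.20 and 1.10 on the FSH antibody arrays and 1.15 and 0.86 on the control IgG arrays. The promoter window of Canx is not reported here.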

Additional observations from a re-analysis of the deposited data

How the results depend on the processing

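Of 29 probe sets that the naming rule gives, 11 kept their direction in all 12 alternative fits, and 2 (Cryab M55534mRNA_s_at and Hsph1 AA108277_at) in the 11 that tested them. Members called lower, 1 in the report, were 0 with quantile normalization, median centring, a constant of 1 or 64, no filter and no intensity trend, each with 3 lower members at an unadjusted p under 0.05 by limma. With 1 array left out, 0 to 2 were called lower and 0 to 1 higher, and 3 to 7 were lower at the unadjusted level (5 without FSH antibody replicate 1, 7 without replicate 2). With the 60th percentile filter 1 member was higher at that level. Over all features, against 14 calls, limma gave 0 with quantile normalization (424 at an unadjusted p under 0.05), 4 with median centring, 0 with no filter (702) and 39 with the replicate number as a block. Leaving out 1 array gave 0 to 153, with 153 and 93 without FSH antibody replicate 1 and 2 and 0 without either control IgG array (364 and 267 at the unadjusted level). No label says that the replicate number pairs samples, the deviations of same-numbered arrays correlated at 0.0024, and the block changed no call of a member. The median change of the members was −0.073 with median centring, where that of all tested probe sets went from 0.029 to −0.018. The counts of values below 0, chosen after seeing the data, ranged from 35 of 62 (without FSH antibody replicate 1) to 44 of 62 (median centring) for members and from 14 of 21 to 19 of 21 in the ER under the same settings. The share of all tested probe sets below 0 was not counted in these settings, so the higher counts include the shift of the whole array.

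The other 16 turned sign in at least 1 fit. In the report these lay between −0.24 and 0.27, with 13 of the 16 within 0.2 of 0. With quantile normalization Dnaja2 rc_AI170685_at gave 0.025, Hspa9 S75280_s_at 0.0045, Pdia4 0.011 and Pdia6 0.0016, and with median centring Hspd1 X54793_at gave −0.016. With 1 array left out the values ran from −0.40 to 0.32 for Cct6a rc_AA875047_at, from −0.11 to 0.26 for Dnaja1 U53922_at, from −0.20 to 0.17 for Dnaja2 rc_AI170685_at, from −0.23 to 0.067 for Hspa5 M14050_s_at, from −0.14 to 0.097 for Hspa9 S75280_s_at, from −0.032 to 0.20 for Hspa9 rc_AA944973_at, from −0.89 to 0.48 for Hspb1 rc_AA998683_at, from −0.18 to 0.11 for Pdia6 rc_AA892532_at, from −0.041 to 0.23 for Dnaja2 rc_AI170685_g_at, from −0.0021 to 0.31 for Hsp90ab1 S45392_at, from −0.011 to 0.30 for Hsp90ab1 rc_AI236795_s_at, from −0.098 to 0.16 for Hspd1 X54793_at, from −0.028 to 0.24 for Pdia3 X12355_s_at, from −0.041 to 0.018 for Pdia4 M86870_at, from −0.064 to 0.61 for Hspb1 rc_AI176658_s_at and from −0.49 to 0.0086 for Hspa5 S63521_i_at. The cause of these changes was not tested, except that filters change the number tested and that a lone array is assumed to vary like the other group. Signal over background is unknown for dim probe sets.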
